A study of Mus musculus with 3 samples.

Results

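Nucleoporins, importins and exportins were chosen by gene symbol, as all genes named alone by at least 1 probe set whose symbol begins Nup, Kpna, Kpnb1, Ipo, Xpo or Tnpo followed by a number where the family uses one, with or without a final l. This gave 41 of the 18193 genes on the arrays, of which 19 encode proteins of the nuclear pore and 22 encode transport receptors, and they are read by 107 probe sets. Expression was measured in NIH3T3 cells, which are immortalized fibroblasts of NIH/Swiss mouse embryos, on Affymetrix GeneChip mouse genome arrays. The control cells are labelled untransduced. The mtYAP cells stably overexpressed mouse Yap with the change S112A, which replaces the serine at residue 112 by alanine, and the YAP cells overexpressed wild-type Yap. All cells were grown with 10% calf serum. The paper ran the arrays to examine growth at confluence, but its array methods do not state the density at which cells were taken. Both overexpressing lines were infected with retrovirus and selected with puromycin as pools of surviving cells, which the untransduced control, as labelled, had not been. A free-text field of the control speaks of Max-null embryonic stem cells, and the methods also mention an empty vector. The control is therefore named here by its other labels. The mean of the 2 Yap1 probe sets was 8.57 on the control array, against 7.89 for mtYAP and 8.06 for YAP, so the introduced gene read lower in both lines that carry it. Only a coding sequence was introduced, and the position of these probe sets on the transcript is not known here, so the values check neither label. There was 1 array for each of the 3 conditions, so no value has a replicate error or a test, and every difference below compares single arrays.

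The nuclear pore is a large ring-shaped channel through the nuclear envelope. Scaffold nucleoporins build an outer ring and an inner ring, and nucleoporins rich in phenylalanine-glycine repeats fill the channel and bind passing receptors. Importins carry proteins with a nuclear localization signal inward and exportins carry proteins or RNA outward, and the small GTPase Ran sets the direction by making importins release and exportins hold their cargo in the nucleus. In dividing cells the envelope and its pores are taken apart and rebuilt at each mitosis.

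Most of these genes stood above control in cells overexpressing mtYAP, by modest amounts. The values are log2 levels, averaged over all probe sets that name a gene alone, so that a difference of 1 stands for 2-fold and one of 0.5 for 1.41-fold. In mtYAP minus control, 36 of 41 genes lay above 0 (87.8%) and 5 below, where 51.8% of all genes lay above 0. A difference above 0.5 was seen for 22 genes (53.7%), against 11.6% of all genes. The median was 0.57 for these genes and 0.02 for all genes. Many genes of the array are hardly expressed in these cells, so the same shares were taken among genes with a mean level over the 3 arrays of at least 6, a choice made after seeing the data. Of the 31 genes of the pore and of transport with that mean level, 28 lay above 0 (90.3%) and 18 above 0.5 (58.1%), where 48.8% and 20% of the 6482 such genes of the array did.

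Large differences were few. In mtYAP, 4 of 41 genes (9.76%) lay above 1, compared with 3.77% of all genes. They were Nup43, Nup85, Nup54 and Kpna2. All 4 are among the 31 genes with a mean level of at least 6 (12.9%), where 6.88% of such genes lay above 1. Read by the brightest probe set of each gene, that with the highest mean over the arrays, 8 of 41 genes (19.5%) lay above 1, where 4.84% of all genes read in this way did. None lay below −1, where 4.06% of all genes and 6.8% of genes with a mean level of at least 6 did, and none below −0.5, where 11.5% and 19% did. The whole range ran from −0.07 to 1.64.

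In cells overexpressing wild-type YAP the differences were smaller. The median over the 41 genes was 0.30, against −0.0033 over all genes, and the range ran from −0.12 to 0.86. Above 0 lay 36 genes (87.8%), compared with 48% of all genes. Above 0.5 lay 8 genes (19.5%), compared with 6.38% of all genes. Without the probe sets that the array maker marks as able to match several transcripts, 4 of the 36 genes left (11.1%) lay above 0.5, compared with 5.98% of all genes. Among genes with a mean level of at least 6, the counts were 29 of 31 above 0 (93.5%) and 7 of 31 above 0.5 (22.6%), against 54.1% and 11.3% of such genes on the array. None lay above 1, where 1.36% of all genes and 2.42% of genes with a mean level of at least 6 did. The genes above 0.5 were Nup43, Nup85, Nup188, Nup88, Nup153, Kpna2, Kpnb1 and Ipo5. The control array is shared by this comparison and that of mtYAP, which are therefore not independent.

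The direct comparison of mtYAP with YAP does not use the control array. The level was higher in mtYAP than in YAP for 34 of 41 genes (82.9%), where 53.3% of all genes were higher, and for 27 of the 31 genes with a mean level of at least 6 (87.1%), where 44.9% of such genes were. The median was 0.24, against 0.03 over all genes. A difference above 0.5 was seen for 6 genes (14.6%), compared with 5.45% of all genes, and for 5 of 31 (16.1%) compared with 7.61% of genes with a mean level of at least 6. These were Kpna2 at 0.90, Nup43 at 0.79, Nup54 at 0.69, Xpo4 at 0.63, Nup85 at 0.62 and Xpo5 at 0.58, and of them Xpo4 stayed below a level of 6.

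**Figure D1:**
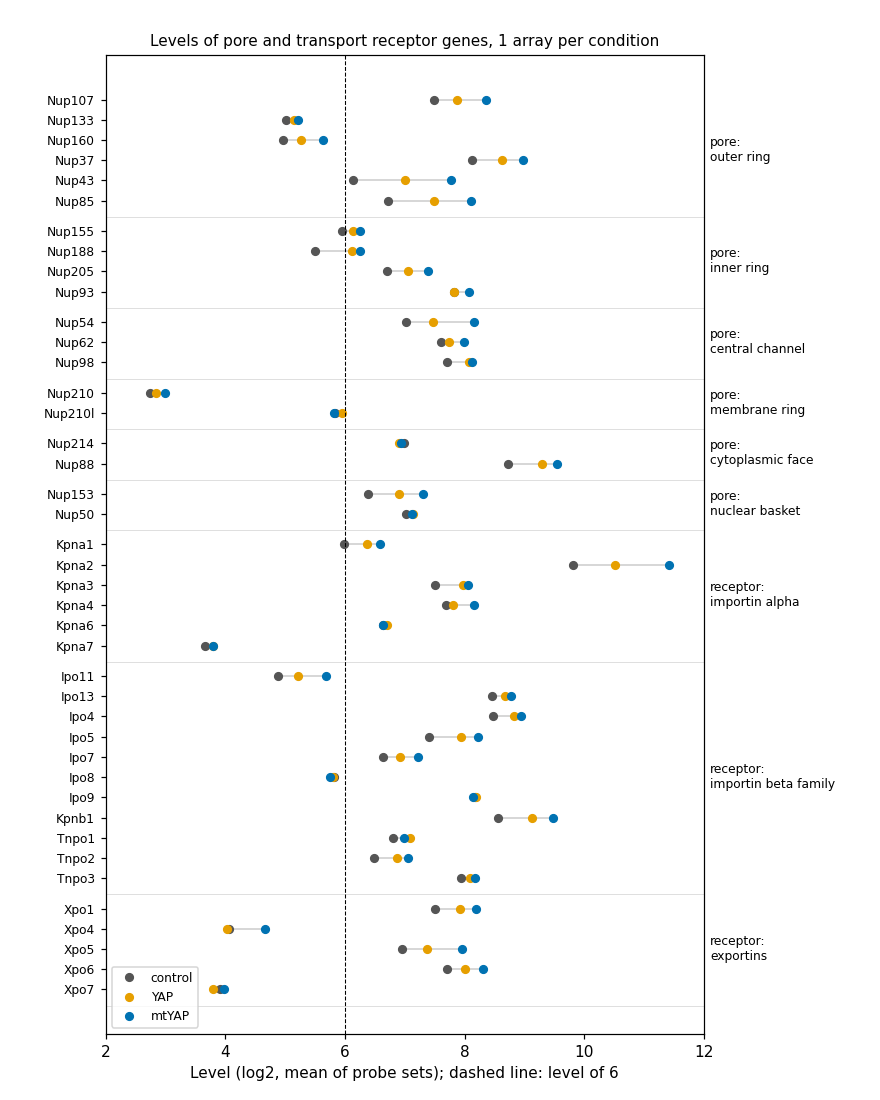
Level of each of the 41 genes (horizontal axis, log2, mean of its probe sets) in control (grey), YAP (orange) and mtYAP (blue), 1 array each, grouped by role. Kpna2 runs from 9.81 in control to 11.42 in mtYAP, whereas the points of Nup214, Nup50, Kpna6, Ipo8 and Ipo9 lie almost on top of each other.

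The outer ring of the pore, also called the Y complex, held the largest difference of the pore. Nup43, a propeller protein of this complex, had a level of 6.14 in control, 7.78 in mtYAP and 7.00 in YAP. This is a difference of 1.64 (3.12-fold) in mtYAP and 0.86 (1.81-fold) in YAP, and its 2 probe sets gave 1.72 and 1.56 in mtYAP. Nup85, a scaffold protein of the same complex, had levels of 6.72, 8.10 and 7.49 in the same order, which are differences of 1.38 (2.60-fold) and 0.77 (1.70-fold). Its 2 probe sets gave 1.21 and 1.55 in mtYAP but disagreed more in YAP, at 0.47 and 1.06, the first being the brighter. Control was lowest and mtYAP highest for both genes. All 6 genes of the outer ring that follow the rule on symbols lay above control in mtYAP, 5 of them above 0.5. Their medians were 0.86 (mtYAP) and 0.45 (YAP). Sec13, a protein of this ring outside the rule, stood below control in both lines, at −0.46 (mtYAP) and −0.49 (YAP). Seh1l, also of this ring and outside the rule, stood above control, at 0.49 and 0.45. Nup107, a scaffold protein at the stem of the Y, differed by 0.87 and 0.39, and Nup37 by 0.85 and 0.50. Nup160, another large scaffold protein, differed by 0.68 and 0.30 as a mean of 2 probe sets, but 1 of these lay near the background on every array, and the other, at 7.36 in control, 8.63 in mtYAP and 7.98 in YAP, gave 1.27 and 0.62. Nup133 was the closest to control, at 0.19 in mtYAP and 0.13 in YAP. It has 6 probe sets, of which 2 reached a level of 6, and these differed by 0.20 and 0.53 in mtYAP.

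The inner ring, which holds the scaffold to the channel, stood less far from control. All 4 of its measured genes lay above control in mtYAP, none above 1 and 2 above 0.5, with medians of 0.50 (mtYAP) and 0.27 (YAP). Nup188 had a level of 5.50 in control, 6.26 in mtYAP and 6.13 in YAP, differences of 0.76 and 0.63. Of its 2 probe sets, that which reached a level of 6 gave 0.71 and 0.43, and the lower one gave 0.80 and 0.82. Nup205, the paralog of Nup188, had levels of 6.71, 7.39 and 7.06, differences of 0.69 and 0.35. Nup93, which binds both of these large proteins, was closest to control, at 7.83, 8.07 and 7.82, so that YAP and control lay 0.01 apart. Nup155 differed by 0.31 and 0.19 as a mean of 3 probe sets, of which 1 lay below 4 on every array, and the others gave 0.58 and 0.64 in mtYAP and 0.43 and 0.19 in YAP.

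The genes of the central channel differed among themselves. Nup54, a nucleoporin with phenylalanine-glycine repeats that forms a complex with Nup62, had a level of 7.02 in control, 8.16 in mtYAP and 7.47 in YAP, differences of 1.14 (2.20-fold) and 0.45 (1.36-fold). All 5 of its probe sets lay above control in mtYAP, from 0.61 to 1.37. Nup62 itself, with levels of 7.60, 7.98 and 7.75, differed by 0.38 and 0.15, and its 5 probe sets ran from 0.27 to 0.52 in mtYAP, all below the lowest of Nup54. These proteins sit in the same complex, and their genes differed from control by unequal amounts on these arrays. Nup98, whose transcript encodes both the channel protein Nup98 and the scaffold protein Nup96, differed by 0.42 and 0.38. Its 2 probe sets put the lines in opposite orders, at 0.45 and 0.39 in mtYAP and 0.14 and 0.61 in YAP.

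At the faces of the pore, 1 gene of each measured pair stood above control and the other hardly differed from it. Nup88 of the cytoplasmic face had a level of 8.72 in control, 9.55 in mtYAP and 9.30 in YAP, differences of 0.83 and 0.58. Nup214, its partner in the cytoplasmic filaments, had levels of 6.99, 6.93 and 6.90, so that both overexpressing lines lay slightly below control. In the nuclear basket, Nup153, which anchors the basket, had levels of 6.39, 7.30 and 6.91, differences of 0.90 (1.87-fold) and 0.51. Nup50, which helps importins to release cargo there, had levels of 7.02, 7.12 and 7.13 and differed by 0.10 and 0.11. Nup210 and its paralog Nup210l, the membrane ring genes that follow the rule on symbols, stayed below a level of 6 on every array. They differed by 0.26 and −0.02 in mtYAP, differences of low signals. Ndc1 of the pore membrane is outside the rule and is given further below, with a difference of 1.37 in mtYAP.

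**Figure D2:**
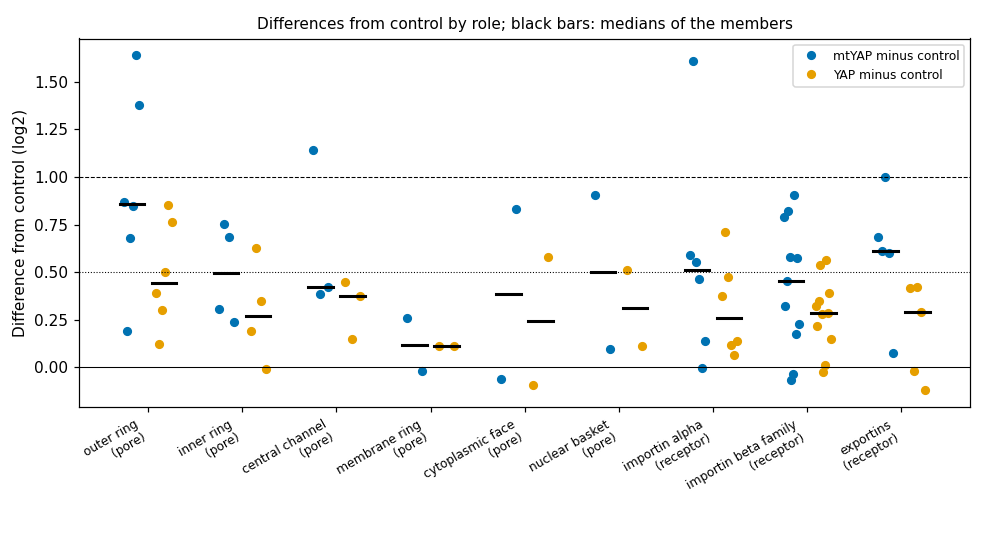
Log2 difference from control (vertical axis) for each gene, in mtYAP (blue) and YAP (orange), by role, with black bars for the medians and lines at 0, 0.5 and 1. The median of the outer ring genes shown is 0.86 in mtYAP and 0.45 in YAP. That of the importin beta family is 0.46 and 0.29, and no gene lies below −0.5.

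Importin alpha proteins are the adaptors that recognise the classical nuclear localization signal and bind importin beta. Among them Kpna2, the form known to be high in proliferating cells, stood apart. Its only probe set read 9.81 in control, 11.42 in mtYAP and 10.52 in YAP, which is a difference of 1.61 (3.05-fold) in mtYAP and 0.71 (1.64-fold) in YAP. Kpna1 had levels of 5.99, 6.58 and 6.37, differences of 0.59 and 0.38, and its 5 probe sets ran from 0.36 to 0.79 in mtYAP. Kpna3 differed by 0.55 and 0.48 and Kpna4 by 0.47 and 0.12. Kpna6, at 6.64, 6.63 and 6.70, was closest to control, and Kpna7 stayed below a level of 6. Over the 6 measured genes the medians were 0.51 (mtYAP) and 0.26 (YAP). The adaptors thus ran from −0.01 to 1.61 in mtYAP.

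Kpnb1 encodes importin beta, the carrier that takes the adaptors and their cargo through the pore. It had levels of 8.57, 9.47 and 9.13 in control, mtYAP and YAP, differences of 0.91 (1.87-fold) and 0.56 (1.48-fold), and its 4 probe sets ran from 0.62 to 1.21 in mtYAP. Ipo5, a carrier of histones and ribosomal proteins, had levels of 7.41, 8.23 and 7.94, differences of 0.82 and 0.54. Of its 3 probe sets, the 2 at a high level gave 1.37 and 1.00 in mtYAP and 0.92 and 0.98 in YAP. The other, below 6, gave 0.09 and −0.29. The brightest probe set of Ipo5 read 9.07 in control, 10.07 in mtYAP and 10.05 in YAP. Ipo11 differed by 0.79 and 0.33. Of the 11 genes of the family, 9 lay above control in mtYAP and 5 above 0.5, with medians of 0.46 (mtYAP) and 0.29 (YAP). Ipo8 and Ipo9 were those below control, at −0.07 and −0.03.

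The paralogs Ipo7 and Ipo8 differed in this respect. Ipo7, which also carries ribosomal proteins, has 1 probe set at a high level, with 10.27 in control, 11.28 in mtYAP and 11.31 in YAP, differences of 1.01 (2.01-fold) and 1.04 (2.06-fold). Its other 2 probe sets stayed below 6, which brings the mean to 0.58 and 0.28. The brightest probe set of Ipo8 read 8.12, 8.11 and 8.26, differences of −0.01 and 0.14. In that probe set Ipo7 was as high in YAP as in mtYAP, unlike most genes of the group. Among the transportins, which import proteins without the adaptors, Tnpo2 differed by 0.57 and 0.39, Tnpo3 by 0.23 and 0.15 and Tnpo1 by 0.17 and 0.29. The mean of Tnpo1 holds 1 low probe set and 2 that reached a level of 6. These 2 put the lines in opposite orders. The brightest, with 9.71 in control, 10.24 in mtYAP and 10.10 in YAP, gave 0.53 and 0.39. The other gave 0.08 in mtYAP and 0.34 in YAP. Ipo4 differed by 0.46 and 0.35 and Ipo13 by 0.32 and 0.22.

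All 5 exportins lay above control in mtYAP and 4 of them above 0.5, with medians of 0.61 (mtYAP) and 0.29 (YAP). Xpo5, which exports precursors of microRNAs, had a level of 6.96 in control, 7.96 in mtYAP and 7.38 in YAP. Its difference of exactly 1.00 in mtYAP lay on the limit and was not counted above it, and in YAP it was 0.42. Its 2 probe sets disagreed in size, at 0.70 and 1.30 in mtYAP and 0.09 and 0.75 in YAP. Xpo1, the main exporter of proteins with a leucine-rich signal, differed by 0.68 and 0.42 as a mean of 3 probe sets. Without a probe set at about 4.0 on every array, the others gave 1.22 and 0.77 in mtYAP and 0.75 and 0.50 in YAP. Xpo6, an exporter of actin, differed by 0.60 and 0.29. Xpo4 stayed below 6, and Xpo7, with 8 probe sets of which 6 stayed below 6, differed by 0.07 and −0.12 as a mean and by 0.32 and 0.37 in its brightest probe set.

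The pore and the receptors stood at like distances from control. The median was 0.68 for the 19 pore genes and 0.56 for the 22 receptors in mtYAP, and 0.35 and 0.29 in YAP. In mtYAP, 10 pore genes (52.6%) and 12 receptors (54.5%) lay above 0.5, and in YAP 5 (26.3%) and 3 (13.6%) did. In mtYAP minus YAP the medians were 0.25 and 0.20. The gap between the medians in mtYAP, 0.12, is small against the spread of either group, whose middle 50% ran from 0.25 to 0.86 for the pore and from 0.19 to 0.67 for the receptors. Its direction turned, to −0.14 in mtYAP and −0.0033 in YAP, when the probe sets that the array maker marks as able to match several transcripts were left out. That setting leaves 36 genes, because some genes have no other probe set. Lost were Nup85, Nup107 and Nup88 of the pore, at 1.38, 0.87 and 0.83 in mtYAP, and the receptors Xpo6 and Ipo4, at 0.60 and 0.46. The set of genes thus changed as well, and no order of pore and receptors can be given.

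**Figure D3:**
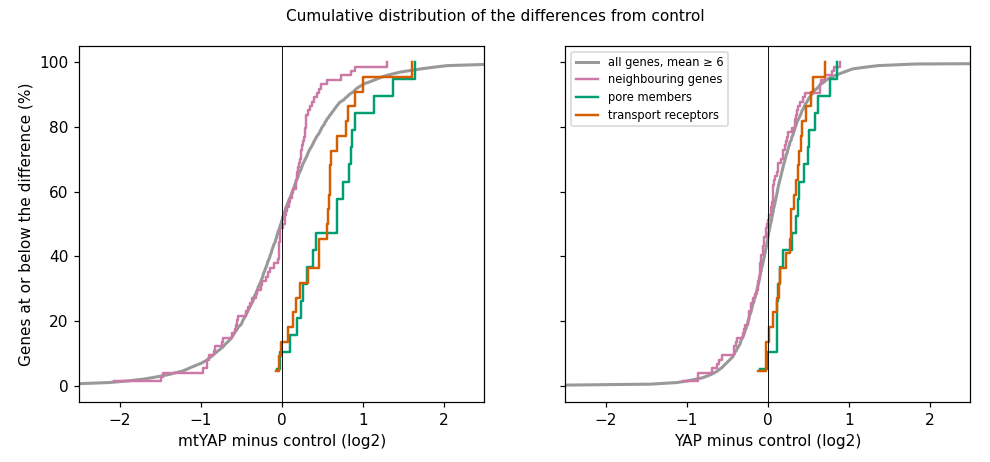
Share of genes at or below a given log2 difference from control (vertical axis, %) for 19 pore genes (green), 22 transport receptors (orange), 74 genes next to them on the chromosomes (pink) and 6482 genes with a mean level of at least 6 (grey), in mtYAP (left) and YAP (right). The curves of the pore and of the receptors cross and lie to the right of the grey curve over most of its range, with medians of 0.68 and 0.56 in mtYAP, and that of the neighbouring genes has a median of 0.02.

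The size of these differences depended on the probe sets read. Of the 107 probe sets, 70 had a mean level over the 3 arrays of at least 6 and 37 did not. The median difference in mtYAP was 0.61 over the first kind and 0.23 over the second, and in YAP 0.40 and 0.04. Of the 70 probe sets with that mean level, 65 lay above control in mtYAP and 63 in YAP, where 49.3% and 54.2% of all such probe sets did. The 5 probe sets that did not lie above control in mtYAP belonged to Nup214, Ipo8 and Ipo9. When each gene was read by its brightest probe set, 8 genes lay above 1 in mtYAP. Nup160, Ipo7, Ipo11 and Xpo1 joined the 4 genes named above. In YAP, Ipo7 alone lay above 1, where 1.81% of all genes did.

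**Figure D4:**
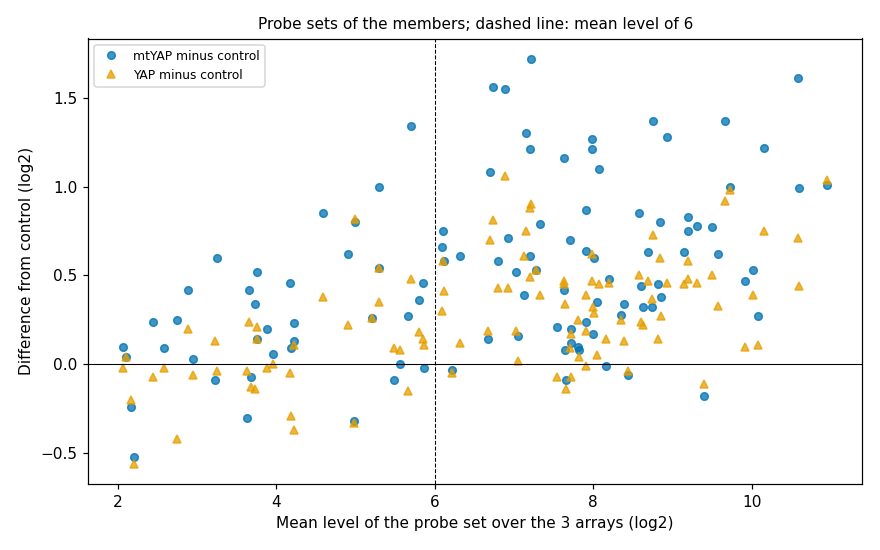
Log2 difference from control (vertical axis) of each of the 107 probe sets against its mean level over the 3 arrays (horizontal axis, log2), in mtYAP (blue circles) and YAP (orange triangles). Right of the dashed line at a mean level of 6, 65 of 70 probe sets lie above 0 in mtYAP, and the low probe sets on the left centre nearer to 0.

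Other genes of nuclear transport, from lists that do not follow the rule on symbols, can be set beside these. Among these lists the Ran cycle had the highest medians. Of 6 measured genes, 2 lay above 1 in mtYAP and 5 above 0.5, where 3.77% and 11.6% of all genes did. The medians were 0.87 (mtYAP) and 0.51 (YAP). Rcc1, which loads Ran with GTP on chromatin, had a level of 6.15 in control, 7.37 in mtYAP and 7.01 in YAP, differences of 1.22 and 0.86. Ranbp1, which helps to release Ran from the receptors in the cytoplasm, had levels of 10.37, 11.55 and 10.94, differences of 1.18 and 0.57. Ran itself differed by 0.93 and 0.56 over 6 probe sets, and Rangrf by 0.81 and 0.47.

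Of 6 transport receptors with other names, 4 lay above 0.5 in mtYAP, where 11.6% of all genes did. The medians were 0.66 (mtYAP) and 0.31 (YAP). Nxt1, the partner of the mRNA exporter Nxf1, differed by 1.00 and 0.57, and Xpot, which exports tRNA, by 0.97 and 0.65. Cse1l, which returns importin alpha to the cytoplasm, differed by 0.65 and 0.30, and Snupn, which imports small nuclear RNPs, by 0.67 and 0.33. Of 11 pore proteins outside the rule, 3 lay above 0.5 in mtYAP, with a median of 0.28 in both lines. With 11 genes, no difference from the 20% of genes with a mean level of at least 6 can be read. Ndc1, which anchors the pore in the membrane, had a level of 5.82 in control, 7.18 in mtYAP and 6.40 in YAP, differences of 1.37 and 0.58. Sec13, a protein of the outer ring that also coats vesicles at the endoplasmic reticulum, went the other way, at 9.91, 9.45 and 9.42. Ahctf1, which seeds pores on chromatin after mitosis, differed by 0.63 and 0.37, and Nupl1, of the complex of Nup54 and Nup62, by 0.59 and 0.30. Of 15 genes of mRNA export, 6 lay above 0.5 in mtYAP, where 11.6% of all genes did. The medians were 0.43 (mtYAP) and 0.22 (YAP). Ddx39a, an RNA helicase of this pathway, stood at 7.76, 9.41 and 8.66, differences of 1.65 and 0.90. The mRNA export adaptor Alyref differed by 0.83 and 0.30, and the subunits Thoc5 and Thoc3 of the THO complex by 0.67 and 0.66 and by 0.64 and 0.22.

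Promoters of the group were searched for short motifs, since its genes stood above control together. RefSeq starts of the build GRCm38.p6 were at hand for 33 of the 41 genes, with 40 promoters, and the 250 bases before each start were read on both strands. The E-box CACGTG, which MYC and MAX bind, was found in 5 of 40 promoters (12.5%) and in 6.02% of 32851 promoters of the genome. The genes were Ipo7, Nup188, Nup54, Nup93 and Tnpo2. GGAATG, the core that TEAD factors bind, was found in 6 of 40 (15.0%) and in 12.6% of all promoters. TTTGGCGC or TTTCCCGC, bound by E2F factors, was found in 1 of 40 (2.5%), that of Nup210, and in 1.3% of all. These are matches of letters in a short window, over few promoters, and no order can be read from the shares. Below are the promoters of the 3 genes with the largest difference in mtYAP that reached a level of 6 and have a promoter in the table, shown because Kpna2 and Nup54 lead their groups and Nup54 holds an E-box. They are written 5′ to 3′ on the strand of the gene, in lower case with motifs in capitals.
Kpna2 (chr11:106999526-106999775, minus strand): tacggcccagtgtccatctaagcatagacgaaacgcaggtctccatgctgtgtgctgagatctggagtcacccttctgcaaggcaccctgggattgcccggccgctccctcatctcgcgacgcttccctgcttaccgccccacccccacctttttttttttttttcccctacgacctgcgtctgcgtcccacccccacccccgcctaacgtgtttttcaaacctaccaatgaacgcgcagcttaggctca
Nup54 (chr5:92435200-92435449, minus strand): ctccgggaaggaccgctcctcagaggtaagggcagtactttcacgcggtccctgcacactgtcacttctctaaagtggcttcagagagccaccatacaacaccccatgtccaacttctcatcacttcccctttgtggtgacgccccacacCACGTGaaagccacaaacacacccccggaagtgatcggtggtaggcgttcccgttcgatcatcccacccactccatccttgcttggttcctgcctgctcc
Xpo5 (chr17:46202561-46202810, plus strand): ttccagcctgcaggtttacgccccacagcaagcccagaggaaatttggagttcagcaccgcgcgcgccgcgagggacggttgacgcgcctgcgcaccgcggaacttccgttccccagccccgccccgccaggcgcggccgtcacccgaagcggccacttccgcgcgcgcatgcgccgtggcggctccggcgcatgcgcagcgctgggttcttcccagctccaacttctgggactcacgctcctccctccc
The E-box of Nup54 begins 100 bases before the start, and the windows of Kpna2 and Xpo5 hold none of the motifs searched. The share of G and C was 57.6% in Kpna2, 57.2% in Nup54 and 70.8% in Xpo5.

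Markers of proliferation also differed between the arrays. Of 7 measured genes of such a list, 6 were highest in mtYAP and lowest in control, whereas Mki67 was at 8.06 in control, 8.70 in mtYAP and 8.76 in YAP. A difference above 0.5 was seen for 6 genes in mtYAP and 4 in YAP, where 11.6% and 6.38% of all genes showed one. The mean level of the list went from 6.91 in control to 8.17 (mtYAP) and 7.47 (YAP). Their part in the differences of the transport genes was not tested, and a larger share of dividing cells cannot be told apart from more of these RNAs per cell. Of 8 fibroblast markers, all were above a level of 6 on at least 1 array. All 8 lay below control in mtYAP, with a median of −0.74. A difference below −0.5 was seen for 5, where 11.5% of all genes and 19% of genes with a mean level of at least 6 showed one. Below −1 lay 3, namely Pdgfrb, Thy1 and S100a4, where 4.06% and 6.8% did. For YAP, 6 lay below control and 2 above, with a median of −0.38. The list averaged 11.29 on the control array, 10.27 for mtYAP and 10.99 for YAP. All 13 measured markers of epithelium, leukocytes and endothelium stayed below a level of 6 on every array.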

How the data were processed

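RNA of 3 conditions of NIH3T3 cells was measured on 1 array each. The log2 levels per probe set are as deposited by the authors, who had corrected for background and normalized by robust multiarray analysis (RMA) in R. RMA and affy stand in the submitters' processing notes without a version. The number of arrays limits the precision. Of 45037 probe sets, 34945 have 1 gene symbol in the platform annotation, 932 several and 9160 none, and those with 1 symbol were averaged per gene. Differences of the averages were counted above 1 and 0.5 and below −1, where 1 itself does not pass. No test was run. The members and gene lists were chosen with earlier results of these data known. Genes named are those past 1 and members that account for counts. In each role, the 2 furthest from and the 1 closest to control in mtYAP are named. Of each other list up to 4 are named, with Seh1l besides, and not always those furthest from control. Some of these, and further members, were chosen after their values were seen. Alternatives were 6 planned settings and 3 added after seeing the data. The counting was tested on simulated data. No protein sequences were used here. Python 3.11.15, numpy 2.4.6, pandas 2.3.3, statsmodels 0.14.6 (loess with a span of 0.3) and matplotlib 3.10.9 were used.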

Additional observations from a re-analysis of the deposited data

How the results depend on the processing

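Medians over the 41 genes moved by less than 0.1 from 0.57 in mtYAP, 0.30 in YAP and 0.24 in mtYAP minus YAP under all 9 alternatives run. Counts depended more on the probe sets. With the probe set of the highest mean level, or with only probe sets that reach a level of 6 on 1 array or in the mean of the 3 (both added after seeing the data), 8 genes lay above 1 in mtYAP in place of 4, and 1 in YAP in place of none. When probe sets with _s, _x or _a in their name were dropped, which leaves 36 genes, 4 (11.1%) lay above 0.5 in YAP in place of 8, and the gap between the medians of pore and receptors went from 0.12 to −0.14 in mtYAP and from 0.06 to −0.0033 in YAP. Removing the median difference of all genes, removing a loess on the level, a level of at least 6 on 1 array or in the mean, and keeping probe sets of several genes left every count within 1.5 times. With the highest probe set, the differences of 19 of the 41 genes in mtYAP and 20 in YAP moved by 0.1 or more, and the sign changed for Kpna6 in mtYAP and for Ipo8, Ipo9, Xpo4 and Xpo7 in YAP. No paired analysis was possible because each condition has 1 array.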

Other observations

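Genes of the lamina and of the nuclear envelope surround the pore. Of 12 measured genes, 5 lay above 0.5 in mtYAP but only 1 did in YAP, where 11.6% and 6.38% of all genes did. The medians were 0.15 and 0.16. Lmnb1, a B-type lamin, had a level of 6.61 in control, 7.49 in mtYAP and 7.25 in YAP, differences of 0.89 and 0.64. Banf1, which links chromatin to the envelope, differed by 0.88 and 0.50. Lmna, the A-type lamin gene, had levels of 7.46, 7.04 and 7.52, so that it stood 0.42 lower in mtYAP than in control and close to control in YAP.

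The protein-coding genes next to the 41 genes on the chromosomes, by the RefSeq order of GRCm38.p6, were read as a description of the surroundings. Of 74 measured neighbours, 5 lay above 0.5 in mtYAP (6.76%), where 11.6% of all genes and 20% of those with a mean level of at least 6 did. Below −0.5 lay 16 (21.6%), where 11.5% of all genes and 19% of those with a mean level of at least 6 did. The median over the neighbours was 0.02. Some of these neighbours belong to the Hippo pathway itself. Lats1, a kinase that phosphorylates YAP, lies next to Nup43 and stood at 0.11 in mtYAP and −0.06 in YAP, while Nup43 stood at 1.64 and 0.86. Lats2, its paralog, lies next to Xpo4 and stood at 0.47 and 0.22 over 6 probe sets. A probe set that names both Xpo4 and Lats2, and so was left out of either gene, read 5.50 in control, 6.09 in mtYAP and 5.82 in YAP. Of the other probe sets that name a gene of the group together with another gene, that of Kpna4 and 9630025H16Rik differed by 1.08 in mtYAP and that of Ipo4 and Tm9sf1 by −0.51.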
